A study of Homo sapiens with 4 samples.

Results

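The snoRNA host lncRNAs were 10 long noncoding RNA genes whose introns carry small nucleolar RNAs, namely SNHG1, SNHG5, SNHG6, SNHG7, SNHG8, SNHG12, SNHG15, SNHG16, GAS5 and ZFAS1. Their rows were chosen by gene symbol, with every transcript type kept, and the rule used no measured value, although the list of genes was drawn up with earlier results of these data known. All 10 genes were found among the 15113 gene symbols of the deposited table, with 69 of its 43596 transcripts. The table annotates 31 of these as retained_intron, 27 as lincRNA and 11 as antisense.

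MDA-MB-231 cells, a human line established from a triple-negative breast cancer, were cultured in 6-well plates and exposed for 24 h to DMSO, the solvent, or to 10 µM KH-3, a small molecule that blocks HuR, a protein that binds AU-rich RNA. Each condition had 2 libraries, made with an mRNA kit. A group with 5 µM KH-3 is also named in the methods and is not analysed here. The only measurement used was the authors' mean normalized read count of each transcript over libraries, and which libraries entered that mean is not given in the sources used here. The levels therefore do not describe DMSO or KH-3 cells alone. The authors' own comparison of KH-3 with DMSO was not used, and no comparison was made here. Since no value per library was at hand, no spread between replicates can be given and the depth of each library is unknown.

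As background, most human snoRNAs are cut out of introns after splicing of a host RNA. Box C/D snoRNAs guide methylation of ribosomal RNA and box H/ACA snoRNAs guide its pseudouridylation. The spliced host RNA is left over when the intron is removed. Many of these hosts start with a run of pyrimidines, as the mRNAs of ribosomal proteins do, and because their reading frames are short and end far ahead of later exon junctions, the spliced RNA is known to be degraded by nonsense-mediated decay (NMD) during translation. A transcript that keeps a snoRNA-bearing intron differs from the spliced RNA in that the snoRNA is still part of it.

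The hosts carried 37 annotated snoRNAs within their spans, of which 28 are named as box C/D, 8 as box H/ACA and 1 has no box in its name. GAS5 carried 11, SNHG1 carried 9, SNHG12 carried 4, SNHG16 and ZFAS1 carried 3 each, SNHG5 and SNHG7 carried 2 each, and SNHG6, SNHG8 and SNHG15 carried 1 each. None of the 37 had a row of its own in the table, which lists 3 transcripts of type snoRNA in all. The 5 printed here are the snoRNAs that lay inside transcripts with a large share of host reads (SNORD47, SNORD31, SNORA17A and SNORA61) and, for contrast, SNORD50A, which did not. They are read from hg38 on the host strand at RefSeq positions, 5′ to 3′. Capitals mark box C (ATGATGA or GTGATGA within the first 20 bases) and box D (CTGA within the last 20) in the C/D members, and box H (ANANNA, near the middle) and the ACA near the 3′ end in the H/ACA members.
SNORD47 (GAS5, chr1:173864369-173864445, minus strand): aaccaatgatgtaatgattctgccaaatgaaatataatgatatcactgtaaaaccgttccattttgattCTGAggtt
SNORD31 (SNHG1, chr11:62853326-62853393, minus strand): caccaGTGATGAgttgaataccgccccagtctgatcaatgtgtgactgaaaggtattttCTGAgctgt
SNORA17A (SNHG7, chr9:136726747-136726879, minus strand): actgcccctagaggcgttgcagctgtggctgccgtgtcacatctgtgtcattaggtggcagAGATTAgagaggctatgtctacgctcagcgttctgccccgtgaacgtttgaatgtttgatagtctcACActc
SNORA61 (SNHG12, chr1:28579764-28579893, minus strand): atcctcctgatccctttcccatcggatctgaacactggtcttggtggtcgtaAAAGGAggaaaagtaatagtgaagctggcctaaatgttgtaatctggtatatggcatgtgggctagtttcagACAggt
SNORD50A (SNHG5, chr6:85677294-85677368, minus strand): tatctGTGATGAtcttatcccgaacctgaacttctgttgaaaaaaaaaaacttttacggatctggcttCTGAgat

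SNORD31, SNORA17A, SNORA61 and SNORD50A held both of their boxes in these letters, and SNORD47 held box D alone. Both C/D boxes were found in 15 of the 28 C/D snoRNAs of the hosts on the host strand. By comparison, 60.4% of 313 SNORD genes of GENCODE release 44 held both C/D boxes and 73.4% of 214 SNORA genes held both H/ACA boxes. A snoRNA without a match lacks only these letters in these windows. A match is likewise of letters alone, and the marked stretch need not be the working box. In SNORA61 the letters AAAGTA, downstream of the marked AAAGGA, also fit ANANNA.

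The starts of the hosts are shown because a pyrimidine start, that is a C at the first base followed by at least 4 pyrimidines, marks the class of RNAs to which many hosts are known to belong. RefSeq promoter entries (GRCh38.p14) were matched for 8 of the 10 hosts, all but SNHG6 and SNHG15. Each line gives 10 bases before the annotated first base and 20 from it on, with the C and its pyrimidine run within 10 bases of the start in capitals.
SNHG5 (chr6:85678714-85678743, minus strand): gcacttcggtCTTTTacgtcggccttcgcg
SNHG12 (chr1:28581854-28581883, minus strand): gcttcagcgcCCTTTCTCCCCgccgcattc
ZFAS1 (chr20:49278632-49278661, plus strand): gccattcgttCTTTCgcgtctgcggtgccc
SNHG7 (chr9:136728165-136728194, minus strand): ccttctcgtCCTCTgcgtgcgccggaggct
SNHG8 (chr4:118278752-118278781, plus strand): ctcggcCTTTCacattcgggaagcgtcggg
SNHG16 (chr17:76557754-76557783, plus strand): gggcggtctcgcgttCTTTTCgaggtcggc
SNHG1 (chr11:62855866-62855895, minus strand): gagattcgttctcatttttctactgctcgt
GAS5 (chr1:173869026-173869055, minus strand): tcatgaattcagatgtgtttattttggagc

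SNHG5, SNHG12 and ZFAS1 had the pyrimidine start at the annotated first base, which is 3 of 8 hosts or 37.5%. The same start was found in 4.07% of all 35116 promoters, in 5.11% of the 14672 promoters of genes listed in the table, and in 57.3% of 82 ribosomal protein promoters. The longest run was that of SNHG12, with 11 bases. With the C allowed anywhere within 10 bases of the first base, SNHG7, SNHG8 and SNHG16 were added, giving 6 of 8 hosts (75.0%), against 33.5% of all promoters and 79.3% of ribosomal protein promoters. SNHG1 and GAS5 had no such run there. At the first base of each host's most abundant listed transcript, none of the 8 had it, so the count rests on which annotated start is taken. The RefSeq start lay 1054 bases upstream of the first base of the most abundant GAS5 transcript and 1298 bases upstream of that of SNHG7.

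All 10 hosts stood above the median gene. Their levels, given as mean normalized read count per kilobase of transcript length summed over the listed transcripts, ran from 218 for SNHG12 to 2537 for SNHG5, an 11.6-fold range with a median of 734. The median was 108 over all 15113 genes and 19.0 over the 2993 genes with no protein-coding transcript listed. SNHG5 (2537 per kb), SNHG6 (2384 per kb) and GAS5 (1690 per kb) formed the upper end, at percentiles 96.2 to 97.8 of all genes. SNHG8 (840 per kb), SNHG16 (797 per kb), ZFAS1 (671 per kb) and SNHG1 (632 per kb) came next, between percentiles 86.9 and 90.7. SNHG7 (422 per kb), SNHG15 (244 per kb) and SNHG12 (218 per kb) were the lowest, with SNHG12 at percentile 66.5. Among the genes with no protein-coding transcript listed even SNHG12 was at percentile 95.5. With no spread between libraries, neighbours in this order cannot be told apart by a test.

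**Figure D1:**
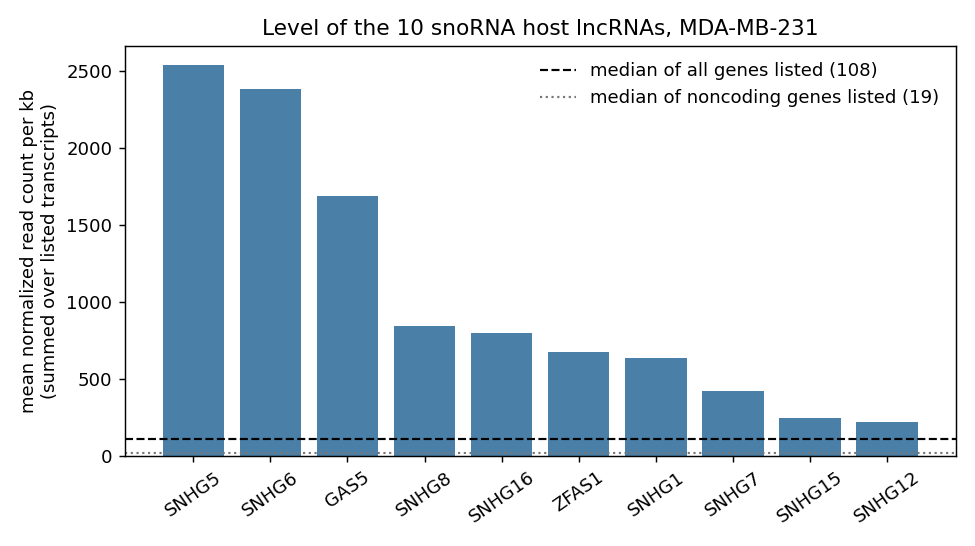
Bars give the level of each host as mean normalized read count per kilobase, summed over its listed transcripts, with no error bars because no value per library was used. All 10 bars lie above the dashed median of all genes (108), from 2537 for SNHG5 to 218 for SNHG12. They also lie above the dotted median (19.0) of genes with no protein-coding transcript listed, labelled as noncoding genes.

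In reads not scaled by length the order was another. GAS5 held the most, with a mean normalized read count of 1637 over 17 transcripts, followed by SNHG16 with 1316 and SNHG5 with 1157. SNHG6 had 981.7, SNHG1 745.3, SNHG15 479.1 and ZFAS1 419. SNHG8 (333.9), SNHG7 (330.4) and SNHG12 (253.9) held the fewest. SNHG16 and SNHG15, whose leading transcripts are 2424 and 3116 bases long, stood higher in reads than per kilobase, and SNHG8, whose leading transcript has 309 bases, stood lower. Together the hosts held 7653 mean normalized reads, or 0.0624% of the sum over the table.

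Beside other genes of the same biology, the median of the hosts (734) lay above that of other noncoding snoRNA hosts and below that of ribosomal proteins on the per-kilobase scale. Of 19 genes taken as other noncoding hosts, 13 were listed, with a median of 131 and a highest value of 823 for DANCR. Of the 10 members, 4 lay above that value. A snoRNA was found within the span of 8 of the 13, from SNHG11 (9.36) to DANCR (823). None was found in SNHG10 (72.3), SNHG20 (35.7), SNHG21 (23.3), DLEU2 (131) and TAPT1-AS1 (14.7). The median of 131 includes these genes. The 18 protein-coding snoRNA hosts had a median of 1043, the 12 listed proteins of the snoRNA particles 1126 and 83 ribosomal proteins 3368. All these levels are sums over listed transcripts only, and a gene with unlisted transcripts would be placed too low. Ribosomal proteins, taken by symbol, ran from 3.65 (RPL3L) to 24440 (RPL5), with RPS15 at 71.9 and RPL8 at 74.4. HSPA8 was the lowest of the protein-coding hosts, at 136. NMD factors, which are involved in the decay of spliced hosts, had a median of 373 over 14 genes. Among 9 listed lncRNAs that host no snoRNA the median was 681, and NEAT1 at 2103 and MALAT1 at 947 lay in the range of the hosts.

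The listed transcripts of the hosts were divided into those that hold at least 1 whole snoRNA inside an exon and those that hold none, or only part of one, judged by the exon positions of the same transcript ID in GENCODE release 44. Of the 69 transcripts 34 held a snoRNA, and they carried 45.7% of the hosts' reads. The annotation type and this measure largely went together, since 27 of 31 retained_intron transcripts held a snoRNA and 7 of 38 other transcripts did. The retained_intron type took 35.1% of the hosts' reads against 5.54% of all reads in the table, and 31 of the 69 transcripts against 16.5% of all. It was concentrated in SNHG1 (100%), SNHG12 (94.9%) and GAS5 (91.7%). In SNHG6 it took 11.3% of the reads, in SNHG5 5.62% and in SNHG16 1.68%. SNHG7, SNHG8, SNHG15 and ZFAS1 had 0.0%.

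The 10 hosts split by this share with a wide gap. In SNHG1, transcripts holding a snoRNA carried 96.6% of the reads, in GAS5 90.2%, in SNHG12 88.6%, in SNHG7 87.0% and in SNHG15 73.8%. In the other 5 the shares were 14.8% for SNHG8, 14.3% for SNHG16, 11.3% for SNHG6, 10.0% for ZFAS1 and 4.06% for SNHG5. None of the 10 lay between 14.8% and 73.8%. With only the transcripts whose length in release 44 was within 10% of the deposited length, the high shares were 72.8% to 95.4% and the low shares became 29.0% for SNHG8, 20.4% for SNHG6, 18.8% for SNHG16, 10.0% for ZFAS1 and 0.0% for SNHG5. The leading transcripts of SNHG6 (302 bases against 374 in release 44) and SNHG8 (309 against 353) were among those left out. The 5 hosts with the low shares had a median level of 840 per kb (671 to 2537), and the 5 with the high shares 422 per kb (218 to 1690). SNHG15 is the member near the middle, since its share was 46.4% of the per-kilobase sum in place of reads. These genes were chosen as spliced hosts, and most listed reads of SNHG5, SNHG6, SNHG8, SNHG16 and ZFAS1 were on transcripts with no whole snoRNA in an exon, whereas most listed reads of SNHG1, GAS5, SNHG12, SNHG7 and SNHG15 were assigned to transcripts that still contain a snoRNA.

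**Figure D2:**
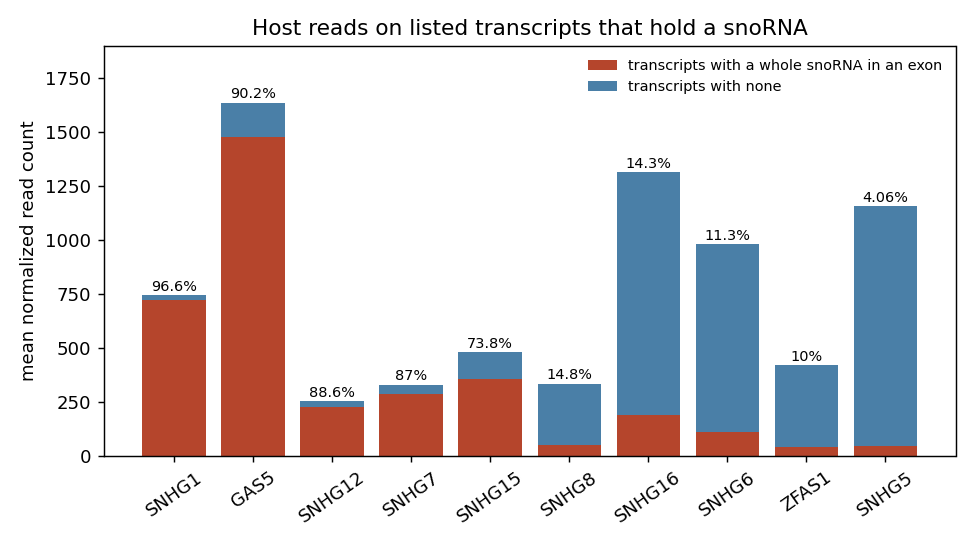
Stacked bars give the mean normalized read count of each host on listed transcripts with a whole snoRNA in an exon and on those with none, with the share of the former printed above each bar. The 5 hosts on the left have shares of 73.8% to 96.6% and the 5 on the right 4.06% to 14.8%.

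These shares are over listed transcripts only. Release 44 holds 61 further transcripts of the hosts with IDs up to the highest in the table that have no row in it, 44 of them without a whole snoRNA in an exon, 15 of SNHG5, 10 of SNHG1 and 5 of GAS5 among these. The same measure in the 8 other noncoding hosts with a snoRNA found within their span had a median of 10.7%, with 2 over 50%. Of these hosts SNHG17 (21.3%) and SNHG3 (36.1%) lay within the gap seen between the members. In 18 protein-coding hosts the median was 0.89%, with 3 over 50% (EEF1B2 53.2%, HSPA8 69.3% and TAF1D 76.3%). EEF1B2 and HSPA8 lay within that gap too, as did RACK1 (22.1%), EIF4A2 (42.2%) and NOP56 (45.8%). These shares too are over listed transcripts only, and the listed transcripts of HSPA8, an abundant chaperone in most cells, summed to 174 reads.

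GAS5 (ENSG00000234741.7, chr1:173858559-173868882, minus strand), known for its rise in growth-arrested cells, spread its reads over the most transcripts, with an effective number (the inverse of the sum of squared read shares) of 6.98 among 17 listed. Its leading transcript, GAS5-022, a retained_intron transcript of 10 exons with SNORD47 in an exon, had a mean normalized read count of 461, which is 28.2% of the gene. GAS5-002 with SNORD76, SNORD80 and SNORD47 followed at 302, GAS5-006 with SNORD76, SNORD77, SNORA103 and SNORD44 at 186, and GAS5-018 with SNORD79, SNORD80 and SNORD47 at 106. The other 13 ranged from 11.8 to 88.7. Of the 17 transcripts 12 held a snoRNA.

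By release 44 exon positions, the snoRNAs of GAS5 lay in exons of listed transcripts to unequal degrees. These positions are uncertain for GAS5-018 (1114 bases deposited against 1695), GAS5-012 (799 against 1017) and GAS5-023 (643 against 1514). Among transcripts with SNORD79, GAS5-004 (61.1) alone was of like length, and GAS5-018 and GAS5-023 also enter the share of SNORD80. With transcripts of like length alone the share of GAS5 was 89.9%. SNORD47, printed above, lay in exons of transcripts with 53.1% of the GAS5 reads and SNORD76 in those with 41.6%. SNORD80 (26.6%), SNORD79 (17.3%), SNORD44 (16.6%), SNORD77 and SNORA103 (11.4% each) and SNORD81 (8.62%) had smaller shares. SNORD74, SNORD75 and SNORD78 lay whole in no exon of a listed transcript. The transcripts without a snoRNA were GAS5-016 (51.6), GAS5-015 (50.1), GAS5-017 (24.9), GAS5-028 (21.7) and GAS5-014 (11.8). In all 5 only the last bases of SNORA103 (1701 to 1787 from the 5′ end) touched the edge of an exon (1785 to 1815). SNORD74 lay partly in an exon in 3 of them. For GAS5-017 and GAS5-028 that edge was the only contact of a snoRNA with an exon.

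**Figure D3:**
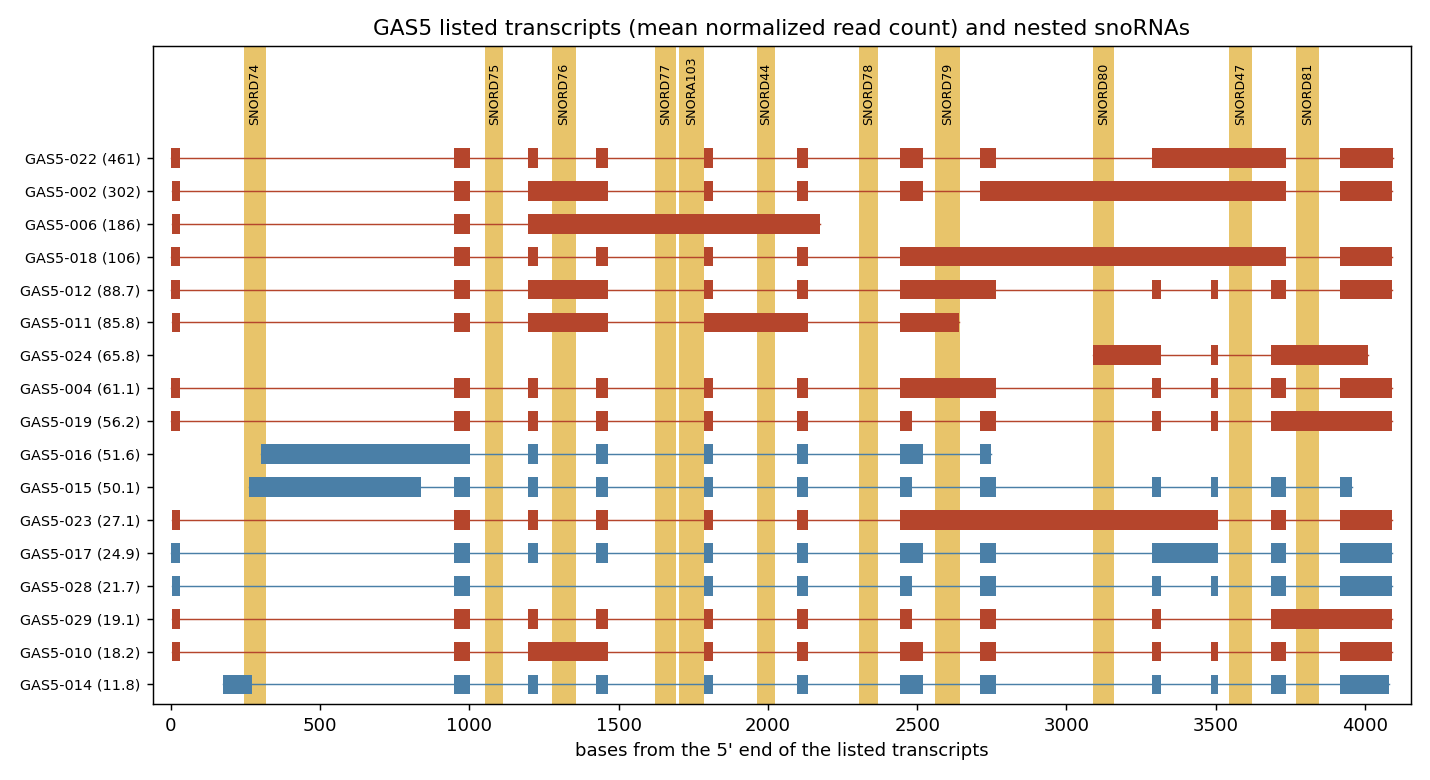
Boxes are exons and lines introns of the 17 listed GAS5 transcripts, ordered by mean normalized read count (in brackets), along the distance in bases from their 5′ end, and vertical bands are the 11 snoRNAs. The 12 transcripts in red hold a whole snoRNA in an exon, and the leading 461-read transcript keeps the intron of SNORD47 near the 3′ end.

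SNHG1 (ENSG00000255717.6, chr11:62851978-62855953, minus strand) was the host of SNORD22 and of the SNORD25 to SNORD31 series. All 8 of its listed transcripts are annotated as retained_intron. SNHG1-003, with 6 whole snoRNAs in its 5 exons, held 404 of 745.3 reads (54.3%), and SNHG1-024 followed at 104. The other 6 ranged from 25.3 to 58.6. The lowest, SNHG1-015, with 9 exons, was the one transcript that held no whole snoRNA, although part of SNORD22 lay in an exon. SNORD25 and SNORD29 were carried by transcripts with 80.3% of the reads, SNORD27 by 76.5%, SNORD31 by 73.1%, and SNORD26 and SNORD22 by 68.2% each. LOC124900306 (26.0%), SNORD28 (25.5%) and SNORD30 (4.19%) were carried by fewer. Deposited lengths differ from release 44 for SNHG1-024 (625 bases against 3527), SNHG1-008 (996 against 2078) and SNHG1-022 (849 against 2812). The exon positions of these are uncertain. The 8 snoRNAs placed in SNHG1-024 are together longer than 625 bases, so not all can lie in it as deposited. The shares of LOC124900306 and SNORD30 rest wholly on these transcripts, and that of SNORD28 on them and SNHG1-012 (54.9). With transcripts of like length alone the share of SNHG1 was 95.4%.

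SNHG12 (ENSG00000197989.13, chr1:28578538-28583132, minus strand) carries mostly H/ACA snoRNAs. Its transcripts SNHG12-003 with SNORA61 (102), SNHG12-012 with SNORA44 and SNORA61 (72.7), SNHG12-005 with SNORA16A and SNORA44 (30.4) and SNHG12-004 with SNORA16A and SNORA61 (20.1) held 88.6% of its reads. SNORA61 was thus carried by 76.6% of the reads, SNORA44 by 40.6% and SNORA16A by 19.9%, while SNORD99, the single C/D snoRNA of this host, lay in no exon. SNHG12-007 (16.1) held part of SNORA16A, and the 6-exon SNHG12-011 (12.8) held none.

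SNHG7 (ENSG00000233016.6, chr9:136721366-136728184, minus strand) had 4 listed transcripts, all annotated as antisense. SNHG7-004 with SNORA17A stood at 172 and SNHG7-002 with SNORA17A and SNORA17B at 115, against 28.7 for SNHG7-001 and 14.2 for SNHG7-003, which held none. The deposited length of SNHG7-004 is 509 bases against 1215 in release 44, and without it the share was 72.8%. Of the exonic bases of SNHG7, 31.9% overlap exons of FAM69B (DIPK1B in release 44) on the opposite strand, which had 30.4 reads.

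SNHG15 (ENSG00000232956.8, chr7:44983019-44986961, minus strand) was dominated by SNHG15-002, a lincRNA of 2 exons and 3116 bases with SNORA9 inside, at 354 reads (73.8%). Its transcripts without the snoRNA stood at 69.9 (SNHG15-004), 37.7 (SNHG15-006), 9.78 (SNHG15-001) and 8.08 (SNHG15-008). Per kilobase SNHG15-002 (114) and SNHG15-004 (73.3) were closer than in reads.

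SNHG5 (ENSG00000203875.10, chr6:85650491-85678932, minus strand), the host of SNORD50A and SNORD50B, was the reverse case. SNHG5-002, a 6-exon lincRNA of 430 bases with both snoRNAs in its introns, held 1013 of 1157 reads (87.6%). The next, SNHG5-001, also spliced clear of both, stood at 58.9. SNHG5-009, which keeps both snoRNAs, stood at 29.8 and SNHG5-005 with SNORD50B at 17.1. SNHG5-008 (18.1), with part of SNORD50A in an exon, SNHG5-013 (11.8) and SNHG5-014 (7.78) completed the list. SNORD50A, printed above, was thus carried by transcripts with 2.58% of the reads, against 53.1% for SNORD47 in GAS5. The exon positions of SNHG5-009 (998 bases deposited against 1504 in release 44) and SNHG5-005 (680 against 823) are uncertain. With transcripts of like length alone the share of SNHG5 was 0.0%. Of the exonic bases of SNHG5, 35.3% overlap exons of RP11-321N4.5 (ENSG00000271793) on the same strand, which had 20.5 reads.

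SNHG6 (ENSG00000245910.8, chr8:66920561-66926398, minus strand), the host of SNORD87, divided its reads among SNHG6-006 (429), SNHG6-003 (291) and SNHG6-004 (141), all spliced clear of the snoRNA. SNHG6-007, the retained_intron transcript with SNORD87, stood at 111 and SNHG6-005 at 10.3. The opposite-strand gene MCMDC2 shares 20.7% of the exonic bases of SNHG6 and is not listed under its gene ID.

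SNHG8 (ENSG00000269893.6, chr4:118278703-118285316, plus strand) had an effective number of 4.39 among its 5 listed transcripts, with reads of 96.1 on SNHG8-003, 90.7 on SNHG8-002, 67.8 on SNHG8-001, 49.3 on SNHG8-005 and 30.1 on SNHG8-004. Of these SNHG8-005 holds SNORA24, although it is annotated as lincRNA and not as retained_intron.

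SNHG16 (ENSG00000163597.14, chr17:76557727-76670985, plus strand) was led by SNHG16-002 (448), SNHG16-003 (364) and SNHG16-008 (316), which have SNORD1A, SNORD1B and SNORD1C in introns. SNORD1C was held by SNHG16-001 (157) and by the single-exon SNHG16-004 (22.1), and SNORD1A by SNHG16-005 (8.95). SNORD1B lay in no exon. The deposited length of SNHG16-008 is 884 bases against 2620 in release 44. An unnamed opposite-strand gene, ENSG00000284526, covers 30.6% of the exonic bases of SNHG16 and is not listed.

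ZFAS1 (ENSG00000177410.12, chr20:49278178-49299600, plus strand), transcribed away from the start of ZNFX1, held 272 of 419 reads on the 5-exon ZFAS1-006 (64.9%) and 54.4 on ZFAS1-004, with SNORD12, SNORD12B and SNORD12C in introns of both. ZFAS1-010, with SNORD12 in an exon, stood at 42.1. ZFAS1-003 (28.7), ZFAS1-005 (11.8) and ZFAS1-002 (10.1) held none. ZNFX1, with 2130 reads, overlaps 15.8% of the exonic bases of ZFAS1 on the opposite strand, and whether the counting used strand is not given in the sources used here.

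**Figure D4:**
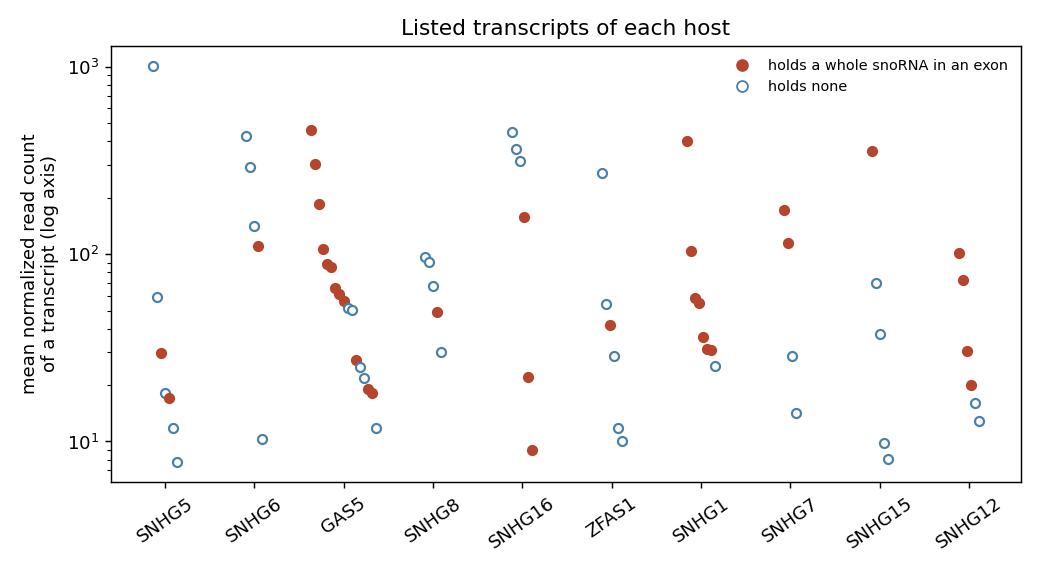
Each point is a listed transcript, at its mean normalized read count on a log axis, with hosts ordered by level per kilobase. Filled points hold a whole snoRNA in an exon, and they lead in GAS5, SNHG1, SNHG7, SNHG15 and SNHG12, whereas open points lead in SNHG5, SNHG6, SNHG8, SNHG16 and ZFAS1.

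Across hosts, 30 of the 37 snoRNAs lay whole in an exon of at least 1 listed transcript, which was so for all 8 H/ACA snoRNAs and 21 of the 28 C/D snoRNAs. The 7 that lay in none were SNORD99, SNORD1B, SNORD74, SNORD75, SNORD78, SNORD12C and SNORD12B. Transcripts with a snoRNA had a median of 4 exons and 836 bases, and those without had 5 exons and 672 bases.

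The layout that NMD acts on was read from the 47 host transcripts whose length in release 44 was within 10% of the deposited length. The reading frame from the first AUG had a median of 33 codons (3 to 117) and was closed by a stop in all 47. In 38 of them at least 1 exon junction lay over 50 bases downstream of that stop, and in 9 none did. The same count over all listed transcripts is not given, so this layout is not shown to be particular to the hosts. Transcripts of the same gene overlap and are not separate observations. The leading transcripts GAS5-022 (50 codons, 3 such junctions), SNHG5-002 (35 codons, 2 junctions) and ZFAS1-006 (25 codons, 2 junctions) were in the first class. The 9 were GAS5-006, SNHG1-012, SNHG1-010, SNHG16-004, SNHG16-005, SNHG6-007, SNHG7-002, ZFAS1-010 and SNHG8-002. All of these but SNHG8-002 held a whole snoRNA in an exon. The layout is a description of the annotation, and decay was not measured.

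AUUUA, the core of the AU-rich elements that HuR is known to bind, was found in 25 of the 47 (53.2%) against 70.1% of 42550 listed transcripts matched by ID. The median number per kilobase was 0.525 in the hosts and 0.897 over all, although the hosts had more A and U (median 55.6% against 51.4%). SNHG15-002 and SNHG16-001 had 6 each. In GAS5, GAS5-006 had 1 and each of the other 11 transcripts of like length had 0. In ZFAS1 all 6 had 0. The 42550 transcripts were not limited to like length in both releases and were not matched to the hosts for length or type. A longer transcript has more room for a match. Transcripts of GAS5 and of ZFAS1 overlap within each gene and are not separate observations. The comparison therefore does not show that hosts are poor in AUUUA. A match is a description of letters and not a binding site.

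The line's labelled identity was checked against its markers on the per-kilobase scale. Of the markers fixed as present, VIM (10135), AXL (2820) and CAV1 (2599), known for the mesenchymal state of these cells, were higher, as was EGFR (1242). CD44 (427) and SPARC (209), fixed as present too, were lower. Of the markers fixed as low or absent, ESR1, PGR and CDH1 were not listed, ERBB2 was at 44.3 and EPCAM at 43.3, whereas the luminal keratins KRT8 (384) and KRT18 (5378) were above the median gene. Of markers of other cell types PTPRC was not listed, PECAM1 was at 4.08, COL1A1 at 39.4 and ACTA2 at 74.8.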

How the data were processed

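TruSeq mRNA libraries of MDA-MB-231 cells were sequenced on an Illumina HiSeq system, 2 for DMSO and 2 for 10 µM KH-3 (24 h). According to the methods, the authors mapped reads with STAR at default parameters to the transcripts of GENCODE release 24, estimated reads per transcript with eXpress, which divides reads shared by overlapping transcripts of a gene, and compared groups with DESeq2. Per the labels the build was hg38, and versions of the tools are not given in the sources used here. The deposited value used is a signal, the mean normalized read count per transcript, averaged over libraries by the authors. Its lowest value is 7.34. The table also holds the authors' log2 fold change, p-value and q-value, which were not used. No value per library was used, so depth and replicate error could not be had, and no test between groups was run here.

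Each transcript's mean was divided by its deposited length in kilobases and summed per gene symbol. Exons came from GENCODE release 44 by transcript ID (69 of 69 found, 30 with the same length), snoRNA positions from RefSeq (GRCh38.p14, no strand given) and starts from RefSeq promoters. A snoRNA was counted to a host when it lay within the gene's span. The members and gene lists were chosen with earlier results of these data known, and all members were named. The share of reads on snoRNA-holding transcripts and its alternatives were chosen after seeing the data. The summing of levels was tested on simulated data, and snoRNA placement and the percentile on small made-up examples. Other computations were not tested in this way. Python 3.11.15, numpy 2.4.6, pandas 2.3.3, pysam 0.24.0 and matplotlib 3.10.9 were used.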

Additional observations from a re-analysis of the deposited data

How the results depend on the processing

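Levels and shares depended on how transcripts were summed. The ratio of the highest to the lowest host level per kilobase was 11.6 as reported, 20.3 with 200 bases taken off each length, 17.6 with transcripts of a mean of at least 50 alone, and 25.4 with the most abundant transcript of each host alone. With that last choice 2 hosts in place of 5 lay above percentile 90 of all genes. The count of hosts with a pyrimidine start was 3 as reported, 6 with the C allowed within 10 bases and 0 at the first base of the most abundant transcript. Of the 37 snoRNAs within host spans, 26 lay in an intron of the most abundant transcript. The number of hosts with over 50% of reads on snoRNA-holding transcripts stayed at 5, with the exception of 4 on the per-kilobase scale, where SNHG15 was at 46.4%. Of 102 alternative values for 35 results, 72 changed by less than 1.5-fold and 30 by more. The cause was not tested. No paired analysis was possible because no values per library were used, and no library could be left out for the same reason. Unknown depth per library limits every value, most of all the transcripts near the lowest listed mean.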
